A study of Danio rerio with 6 samples.

Results

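Cytochrome P450 genes were followed in the kidney marrow of adult zebrafish that lack or keep granulin a. The table of gene levels was searched for symbols made of cyp and a family number, which gave 70 rows of 15292. The bile acid genes cyp7a1 and cyp8b1, the sterol gene cyp51 and the retinoid genes cyp26a1 and cyp26b1 were set apart, which left 65 P450 genes. P450 enzymes under other symbols, such as ptgis and tbxas1, were not among them. Whole kidney marrow, 1 fish to a library, came from 3 homozygous grna mutants (grna-/-) and from 3 of their unmutated siblings (grna+/+). After heart puncture the kidneys were taken out, dispersed, strained and lysed, with no sort described, so blood cells, tubules, vessels and stroma were measured together. Which part of grna was altered, and the age, sex and clutch of the fish, are unstated in the labels. Levels are in TPM, a unit that corrects for library size and gene length and so allows genes to be set beside each other. Throughout, grna+/+ values come first, in the order of the replicates, and means carry their SD over 3 fish.

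P450 enzymes are heme proteins that insert an oxygen atom into their substrate. Families 1 to 4 act mostly on foreign chemicals, fatty acids and eicosanoids, while the families with higher numbers make or break down sterols, bile acids, steroid hormones, vitamin D and retinoids. They draw electrons from P450 oxidoreductase and cytochrome b5 in the endoplasmic reticulum, or from adrenodoxin in mitochondria. In fish the kidney holds both the blood-forming marrow and the renal tubules, and the interrenal gland, the fish counterpart of the adrenal cortex, lies in its anterior part.

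Libraries held 11080875 to 14075134 counted reads, and 12842 to 13048 genes were above 0. The targeted gene grna was at 135 to 151 TPM in grna+/+ fish against 65.2 to 74.0 TPM in grna-/- fish, in the direction of the labels. Genotypes were compared with limma on log2(TPM + 1) over the 10750 genes with a mean of at least 1 TPM, and a Benjamini-Hochberg adjusted p below 0.05 was called. Erythroid and neutrophil marker sums were separate between the genotypes. The 11 erythroid markers in the table summed to 21290 to 50586 TPM in grna+/+ fish against 80866 to 93512 TPM in grna-/- fish. Of the 10 tested 5 rose, though none was called without grna+/+ replicate 3, grna-/- replicate 1 or grna-/- replicate 2. Of all genes tested 0.66% were called higher and 0.493% lower. The 9 neutrophil markers summed to 42279 to 45908 TPM and to 21778 to 40366 TPM, and 1 of the 8 tested, cebpa, fell. Among the 6 leave-outs the list held 1 lower call without grna+/+ replicate 1, 1 without grna-/- replicate 3, and none otherwise. Sums overlapped for 7 macrophage markers (878 to 1386 TPM and 877 to 1007 TPM), 7 lymphoid markers (138 to 267 TPM and 165 to 232 TPM) and 8 markers of distal tubule and duct (722 to 1081 TPM and 895 to 1777 TPM). Of the 7 macrophage markers tested 1, apoeb, was called lower. That list held no call without grna+/+ replicate 3, grna-/- replicate 2 or grna-/- replicate 3. No lymphoid or distal tubule and duct marker was called in the main fit. In such bulk samples fewer cells of a type and less RNA per cell cannot be told apart.

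One P450 gene fell in grna-/-, namely cyp1c2, and none rose. Of the 65 genes, 5 were at 0 in every library, 28 were above 0 but averaged under 1 TPM, and 32 were tested. The 1 of 32 that fell stands beside 0.493% of all genes tested (53 of 10750), and the 0 of 32 that rose beside 0.66% (71 of 10750). With limma, 5 tested P450 genes lay lower and 3 higher at an unadjusted p below 0.05. This is 8 of 32, where 17.6% of all genes tested had such a p. The median log2 fold change of the tested P450 genes was -0.17, against 0.07 for all genes, and 21 of the 32 were below 0, against 42.5% of all genes. Groups did not overlap for 6 P450 genes that were lower and 2 that were higher, beside 10.6% and 14% of all genes tested. Only cyp8b3 passed the filter through the mean of 1 genotype, that of grna-/-. It is among the 3 higher genes by unadjusted p and the 2 higher genes without overlap. When no filter was applied, 60 P450 genes were tested and none was called, and none of the 28 rarer genes had an unadjusted p below 0.05.

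The total level of P450 transcripts was close in the 2 genotypes but uneven among fish. Summed over the 65 genes it was 808, 896 and 577 TPM in grna+/+ replicates 1 to 3 and 703, 977 and 607 TPM in grna-/- fish replicates 1 to 3. The means were 760 ± 164 and 762 ± 192 TPM (SD, n = 3 each). Among the 32 tested genes, 14 had their highest value in grna-/- replicate 2 and 12 their lowest in grna-/- replicate 3. Tubule markers were uneven too: the 11 markers of the proximal tubule summed to 1681, 1703 and 1086 TPM in grna+/+ fish against 1335, 2538 and 1313 TPM in grna-/- fish. grna-/- replicate 2 was thus highest for both sums and grna+/+ replicate 3 lowest for both, and the part of tubule content in the P450 levels was not tested.

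A few genes carried most of this level. The 12 most abundant P450 genes made up 82.3% of the P450 sum on average. In order they were cyp2k22, cyp4f3, cyp4t8, cyp3c1, cyp1a, cyp2ad2, cyp20a1, cyp2p6, cyp2n13, cyp2k8, cyp2p7 and cyp1c2. Means over the 6 libraries were 131, 104, 96.3, 69.6 and 56.5 TPM for the first 5, and their values overlapped between neighbours in that order. At the other end 14 of the 65 genes averaged under 0.1 TPM.

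**Figure D1:**
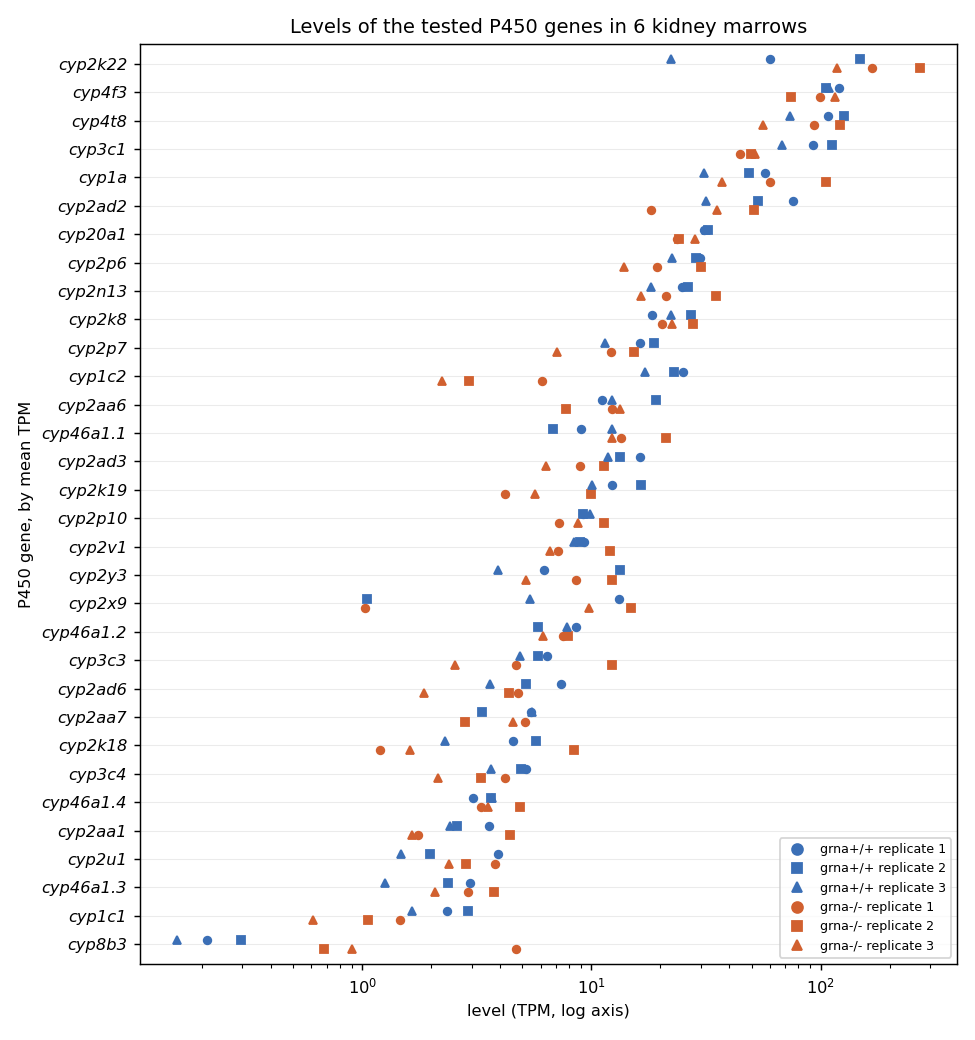
Level of each of the 32 tested P450 genes in each of 6 kidney marrows, in TPM on a log axis, with genes ordered by their mean. Blue marks are grna+/+ and orange marks grna-/-, and the shape gives the replicate number; cyp1c2 shows the 3 orange marks far below the 3 blue ones, while the marks of most genes mix.

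The CYP1 family is the set of P450 genes most tied to the aryl hydrocarbon receptor, which switches on cyp1a, cyp1b1, cyp1c1 and cyp1c2 when planar aromatic compounds bind it. The CYP1C genes are found in fish and are missing from mammals. cyp1c2 was at 25.1, 23.0 and 17.2 TPM in grna+/+ fish against 6.09, 2.93 and 2.23 TPM in grna-/- fish. The highest grna-/- value was well below the lowest grna+/+ value. Means of 21.8 ± 4.12 TPM and 3.75 ± 2.06 TPM (SD, n = 3 each) make a 5.80-fold difference of means. On the log2(TPM + 1) scale limma put the change at -2.33 (SE 0.31, 95% interval -3.03 to -1.62, adjusted p = 0.0208). In reads recovered from the TPM steps, the gene had 533, 432 and 370 against 109, 67 and 44, so each level rests on at least 44 reads.

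The direction of cyp1c2 held in all 17 alternative settings, while its call depended on which libraries were used and on the filter. Many of these settings could not turn the direction. The filters, the trend and the block leave the log2 fold change as it is. Groups that do not overlap keep their sign when 1 library is left out. With 1 library left out it lay between -2.66 and -2.09 in log2 units. The limma adjusted p was then 0.0527 without grna+/+ replicate 3, 0.116 without grna-/- replicate 2 and 0.056 without grna-/- replicate 3, and it was 0.0544 with no filter on low genes. The gene was called under the other 13 settings.

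Other CYP1 genes did not pass. cyp1c1, the neighbour of cyp1c2 in the RefSeq gene order of assembly GRCz12tu, was at 2.34, 2.90 and 1.65 TPM in grna+/+ fish against 1.47, 1.06 and 0.611 TPM in grna-/- fish. These values do not overlap, but the gap between 1.65 and 1.47 TPM is narrow (log2 fold change -0.69, SE 0.27, 95% interval -1.31 to -0.08, limma adjusted p = 0.246). It stood at 9.31% to 12.6% of the cyp1c2 level in grna+/+ and at 24.1% to 36.0% in grna-/-. Neighbouring genes of 1 subfamily may share reads, which was not examined for this pair. cyp1a, the standard readout of receptor activation, was at 57.0, 48.9 and 30.9 TPM in grna+/+ fish against 60.1, 105 and 37.0 TPM in grna-/- fish. Its genotypes overlapped, with 1 high value in grna-/- replicate 2 (log2 fold change 0.47, SE 0.37, 95% interval -0.39 to 1.33, adjusted p = 0.515).

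The level of cyp1a was 1.80 to 2.27 times that of cyp1c2 in the grna+/+ libraries and 9.86, 35.9 and 16.6 times in the grna-/- libraries. This ratio was picked after the values were seen and is a description only. cyp1b1, which also oxidises oestrogens in mammals, was under the filter, at 0.762, 0.928 and 0.720 TPM in grna+/+ fish against 0.253, 0.849 and 0.0655 TPM in grna-/- fish. cyp1d1, the remaining member, was at 0.179 to 1.23 TPM and at 0.0979 to 0.803 TPM. For both genes the genotypes overlapped. Summed over the 5 genes, the family averaged 71.1 ± 18.4 TPM in grna+/+ fish against 73.1 ± 35.6 TPM in grna-/- fish, a sum made mostly of cyp1a.

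**Figure D2:**
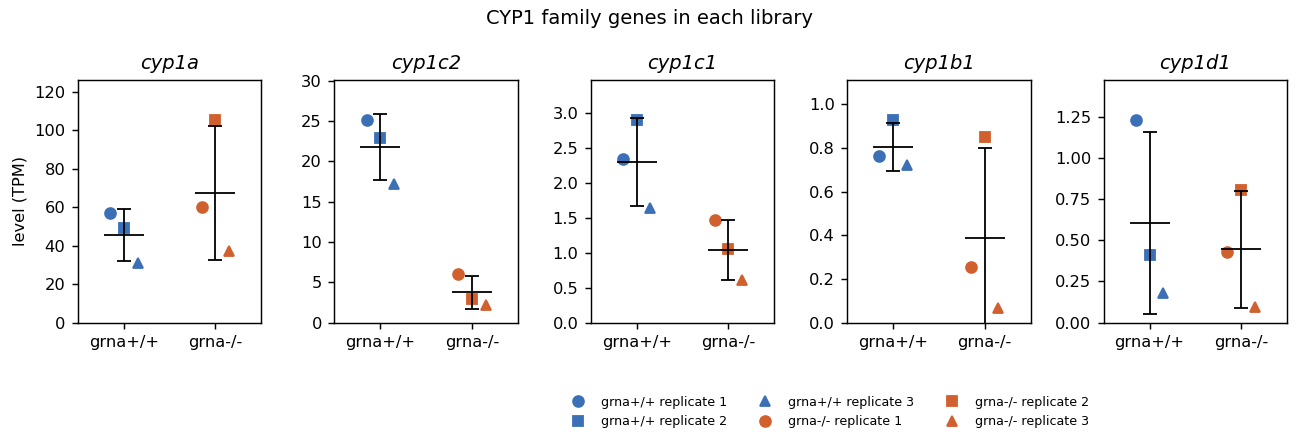
Level in TPM of the 5 CYP1 genes in each library, by genotype, each panel with its own axis from 0. Points are fish, shaped by replicate number, the wide bar is the mean and the whiskers are 1 SD (n = 3); cyp1c2 separates the genotypes by the widest gap, cyp1c1 by a narrow one, and the other 3 genes overlap.

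No gene of the receptor pathway upstream of CYP1 passed the test in the main fit. Of 14 genes on a list of the aryl hydrocarbon receptor pathway, all 14 had a row and 10 were tested. None was called in the main limma fit or by voom (a limma method for reads). None had an unadjusted p below 0.05 with limma, beside 17.6% of all genes tested. Their median log2 fold change was -0.01. With library weights, a fit that called 1656 of all genes higher and 791 lower, 3 of the 10 were called higher. ahr2, the main receptor form in zebrafish, averaged 75.1 ± 4.46 TPM in grna+/+ fish against 71.5 ± 11.1 TPM in grna-/- fish (adjusted p = 0.814). Its partner arnt averaged 12.6 ± 0.908 and 14.9 ± 1.96 TPM (adjusted p = 0.501). The chaperone hsp90ab1, at 4837 ± 310 and 4280 ± 212 TPM, and the receptor-binding protein aip, at 118 ± 16.8 and 93.0 ± 7.39 TPM, had adjusted p of 0.324 and 0.29. Among further genes that the receptor induces, tiparp averaged 32.3 ± 7.58 and 34.8 ± 6.43 TPM and nqo1 5.97 ± 2.68 and 7.84 ± 3.05 TPM. The repressor ahrrb was at 0 in all 6 libraries.

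The summed stromal and endothelial markers were lower in grna-/-, as was cyp1c2. Stromal markers, 10 in the table from a list of 11, summed to 744 to 877 TPM in grna+/+ fish against 280 to 596 TPM in grna-/- fish. Of the 9 tested 1 fell, tcf21, which was also on the list of podocyte markers and so is not particular to stroma. Of those 9 genes 5 had a log2 fold change below 0 and 4 above. The list median was -0.09 over those 9 genes. Without grna-/- replicate 3 it was 0.46, but over 10 tested genes. Over 10 genes in all libraries, with no filter, it was 0.15. With library weights, the fit that called 1656 of all genes higher and 791 lower, 4 of the 9 were called higher and 2 lower. Endothelial markers, all 13 of them in the table, summed to 258 to 351 TPM and to 169 to 250 TPM, and 1 of the 13 tested, stab2, fell, while 12 had a log2 fold change below 0. The call of tcf21 was lost without grna+/+ replicate 3 and without grna-/- replicate 2 (limma adjusted p up to 0.0616), and that of stab2 was kept only when grna-/- replicate 1 was the library left out (limma adjusted p otherwise up to 0.163). Both sums were separate between the genotypes, the endothelial one narrowly (258 against 250 TPM). Groups did not overlap for 2 of the 9 stromal and 2 of the 13 endothelial genes tested, all lower, beside 10.6% of all genes. The 1 of 9 and the 1 of 13 called lower stand beside 0.493% of all genes. The part of these markers in the fall of cyp1c2 was not tested.

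CYP2 is the family of chemical and fatty acid metabolism that has expanded most in zebrafish, and most roles of its single members are known only by analogy with mammals. It held 33 of the 65 genes and the highest sum, at 316 ± 101 TPM in grna+/+ fish against 383 ± 137 TPM in grna-/- fish (SD, n = 3 each). Of its genes 18 were tested and 4 were at 0 in every library. None was called in the main limma fit or by voom. With limma 3 of the 18 had an unadjusted p below 0.05, beside 17.6% of all genes tested. The log2 fold change was below 0 for 12 of the 18 and above 0 for 6, with a median of -0.17.

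cyp2k22 had the highest mean of all P450 genes and also the widest scatter among the abundant ones. It was at 60.0, 149 and 22.3 TPM in grna+/+ fish against 167, 272 and 117 TPM in grna-/- fish. Only grna+/+ replicate 2 reached into the grna-/- range. The means were 77.1 ± 65.1 and 186 ± 79.1 TPM, and the log2 fold change was 1.56 (SE 0.61, 95% interval 0.16 to 2.96, limma adjusted p = 0.25). Within each genotype replicate 2 was highest and replicate 3 lowest, and with the replicate number as a block the gene rose (limma adjusted p = 0.0314), in a fit that called 2.52% of all genes tested (271 of 10750). With 1 library left out the log2 fold change lay between 0.88 and 2.22. The summed proximal tubule markers had that order of replicates in both genotypes too, partly by narrow margins. They were at 1681 and 1703 TPM in grna+/+ replicates 1 and 2, and at 1335 and 1313 TPM in grna-/- replicates 1 and 3. Across genotypes the order differed: grna+/+ replicate 1 had a higher marker sum than grna-/- replicates 1 and 3 but less cyp2k22. The part of these markers in the cyp2k22 values was not tested.

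The clearest lower CYP2 values were those of cyp2k19 and cyp2ad3, neither of which passed the test. cyp2k19 was at 12.3, 16.4 and 10.1 TPM in grna+/+ fish against 4.21, 10.01 and 5.66 TPM in grna-/- fish, so that the groups all but touched (log2 fold change -0.92, SE 0.30, limma adjusted p = 0.199). cyp2ad3 was at 16.3, 13.3 and 11.8 TPM and at 8.96, 11.4 and 6.36 TPM, again with a narrow gap (log2 fold change -0.60, limma adjusted p = 0.251). These 2 genes and cyp2k22 had the smallest p-values of the family.

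Among the other abundant CYP2 genes the genotypes overlapped. cyp2ad2 was at 75.9, 53.6 and 31.6 TPM in grna+/+ fish against 18.3, 51.4 and 35.4 TPM in grna-/- fish (log2 fold change -0.63, limma adjusted p = 0.436). cyp2p6 was at 29.9, 28.6 and 22.5 TPM and at 19.3, 30.0 and 13.8 TPM, and cyp2p7 at 16.3, 18.8 and 11.5 TPM and at 12.2, 15.4 and 7.08 TPM. In both of them grna-/- replicate 3 was the lowest of the 6 fish. In contrast cyp2n13, at 24.8, 26.3 and 18.2 TPM and at 21.2, 35.0 and 16.4 TPM, had a log2 fold change of 0.01 (95% interval -0.63 to 0.66, limma adjusted p = 0.984). For cyp2k8, at 18.3, 27.1 and 22.2 TPM and at 20.4, 27.7 and 22.4 TPM, it was 0.06 (95% interval -0.40 to 0.52, limma adjusted p = 0.89). Both genes took the other sign under some alternative settings.

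Some CYP2 genes varied between fish by far more than between genotypes. cyp2x9, picked after its values were seen, was at 13.2, 1.05 and 5.38 TPM in grna+/+ fish against 1.03, 14.9 and 9.75 TPM in grna-/- fish. Its highest value was 12.5 times its lowest within grna+/+ and 14.4 times within grna-/-. Over the 32 tested P450 genes the median of that ratio was 1.65 in grna+/+ and 2.15 in grna-/-. The other tested CYP2 genes were cyp2aa1, cyp2aa6, cyp2aa7, cyp2ad6, cyp2k18, cyp2p10, cyp2u1, cyp2v1 and cyp2y3, all between 1.2 and 19.1 TPM in every library. The 11 further genes above 0 stayed under 1.51 TPM, and cyp2aa3, cyp2aa8, cyp2aa9 and cyp2x6 were at 0 throughout.

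Many P450 genes lie side by side, and neighbours did not share a level. All 65 were matched to the RefSeq gene order of GRCz12tu, 60 of them by their current symbol. When at most 2 other protein-coding genes were allowed between them, 40 fell into 8 runs. The longest, of 10 genes, runs from cyp2n13 through the cyp2ad genes and cyp2v1 to cyp2p10. Its means ran from 0.330 TPM for cyp2p9 to 44.4 TPM for cyp2ad2, and 7 of its 8 tested genes had a log2 fold change below 0. The run of 9 cyp2aa genes held 3 that were at 0 and 3 that were tested, with means of up to 12.7 TPM. Copies that are close in sequence can share reads, but the runs rest on gene order and closeness in sequence was not examined. No source used here gives how shared reads were counted, so levels of single genes within a run are uncertain.

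**Figure D3:**
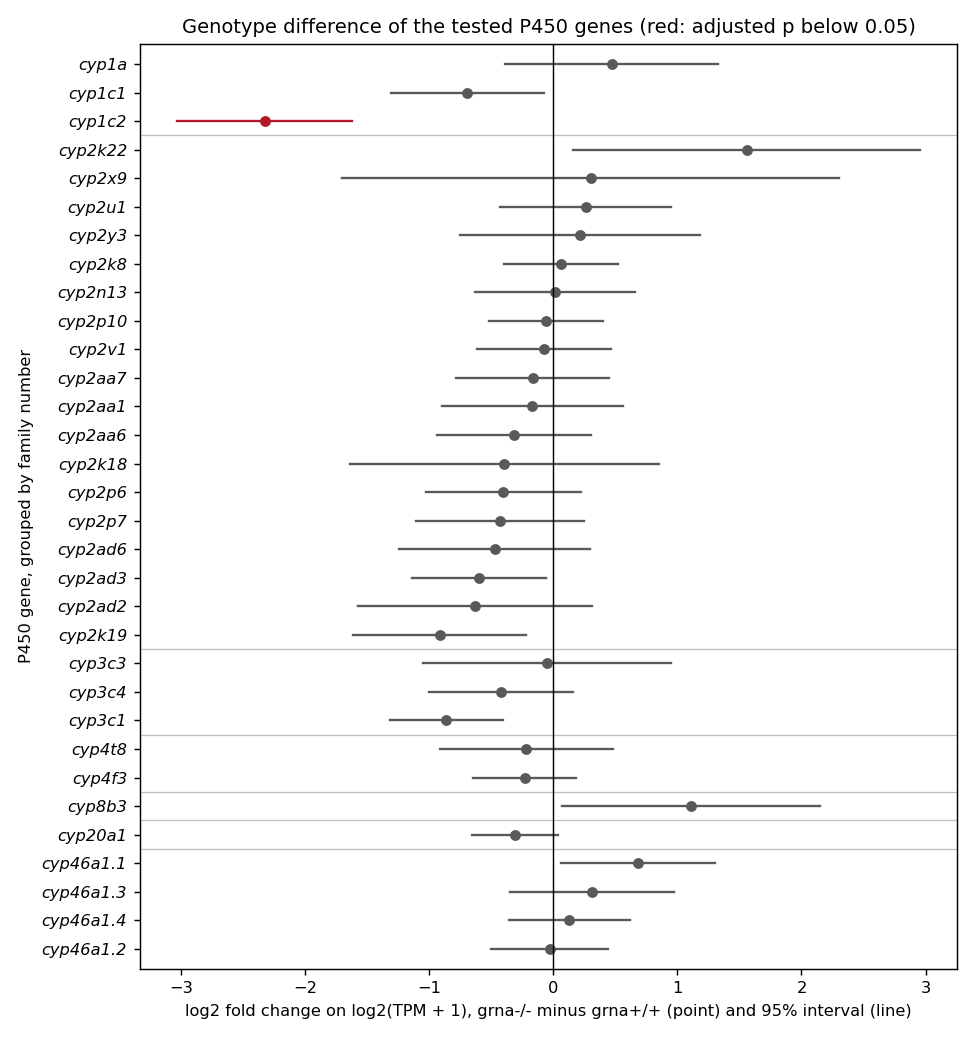
Log2 fold change (grna-/- over grna+/+) on the log2(TPM + 1) scale for the 32 tested P450 genes, grouped by family. Points are limma estimates and whiskers their 95% intervals (n = 3 fish each); the interval of cyp1c2 lies farthest from 0, and those of most genes span 0.

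CYP3 enzymes oxidise drugs and steroids in mammals, and the CYP3C genes are found in fish. cyp3c1, the fourth most abundant P450 gene, was at 92.2, 112 and 67.7 TPM in grna+/+ fish against 44.3, 49.7 and 51.7 TPM in grna-/- fish. All 3 grna-/- fish lay below all 3 grna+/+ fish and close together. The means were 90.7 ± 22.3 and 48.6 ± 3.83 TPM, but the difference missed the threshold (log2 fold change -0.86, SE 0.20, 95% interval -1.32 to -0.41, limma adjusted p = 0.089). Its neighbours overlapped between genotypes. cyp3c3 was at 6.41, 5.82 and 4.90 TPM and at 4.70, 12.3 and 2.53 TPM (log2 fold change -0.05, 95% interval -1.05 to 0.95, limma adjusted p = 0.958). cyp3c4 was at 5.20, 4.91 and 3.63 TPM and at 4.21, 3.30 and 2.15 TPM (log2 fold change -0.42, limma adjusted p = 0.404). cyp3a65, a gene of gut and liver, was above 0 in 1 library only, at 0.0512 TPM.

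CYP4 enzymes hydroxylate the ends of fatty acids and of eicosanoids. In humans CYP4F3 inactivates leukotriene in neutrophils. cyp4f3 was at 121, 106 and 109 TPM in grna+/+ fish against 99.4, 74.1 and 115 TPM in grna-/- fish. The groups overlapped through grna-/- replicate 3 (log2 fold change -0.23, 95% interval -0.65 to 0.18, limma adjusted p = 0.507). The lowest cyp4f3 level was in grna-/- replicate 2, which also had the lowest sum of neutrophil markers, 21778 TPM. The next lowest sum, 33800 TPM, was in grna-/- replicate 3, where cyp4f3 was at 115 TPM, above grna+/+ replicates 2 and 3. Elsewhere the sums were 40366 to 45908 TPM. The part of neutrophil content was not tested. cyp4t8 was at 108, 126 and 73.8 TPM and at 93.2, 121 and 55.8 TPM, with the same order of fish in both genotypes (log2 fold change -0.22, 95% interval -0.92 to 0.48, limma adjusted p = 0.724). cyp4v7 and cyp4v8 stayed under 0.501 TPM.

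cyp20a1 is a conserved P450 gene with no settled substrate. It varied little among fish of a genotype, at 30.9, 32.4 and 31.7 TPM in grna+/+ fish against 23.7, 24.2 and 28.4 TPM in grna-/- fish. The groups did not overlap, but the difference was small and was not called (log2 fold change -0.31, SE 0.15, 95% interval -0.65 to 0.03, limma adjusted p = 0.322).

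Among the 65 P450 genes, those of sterol breakdown and bile acid synthesis were low, apart from the CYP46 genes. The mammalian counterpart of the CYP46 genes hydroxylates cholesterol in the brain. The 4 copies lie side by side and summed to 22.4 ± 3.34 TPM in grna+/+ fish against 29.7 ± 7.21 TPM in grna-/- fish. cyp46a1.1 was at 9.0, 6.82 and 12.2 TPM and at 13.5, 21.3 and 12.3 TPM. The groups stayed just apart (log2 fold change 0.68, SE 0.27, limma adjusted p = 0.253). cyp46a1.2 was at 8.59, 5.82 and 7.84 TPM and at 7.52, 7.92 and 6.15 TPM. cyp46a1.3 was at 2.94, 2.38 and 1.257 TPM and at 2.90, 3.76 and 2.09 TPM, and cyp46a1.4 at 3.06, 3.64 and 3.67 TPM and at 3.30, 4.90 and 3.53 TPM. These 3 copies overlapped between genotypes, with log2 fold changes of -0.03, 0.31 and 0.13 and limma adjusted p of 0.95, 0.58 and 0.771.

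The bile acid genes cyp8b2 and cyp8b3, whose mammalian relative CYP8B is a sterol hydroxylase of the liver, were high in 1 fish. cyp8b3 was at 0.211, 0.297 and 0.155 TPM in grna+/+ fish against 4.68, 0.684 and 0.905 TPM in grna-/- fish. All grna-/- values were the higher ones, but these levels rest on 3 to 5 reads in grna+/+ and on 14 to 75 in grna-/- (log2 fold change 1.11, SE 0.45, limma adjusted p = 0.262). The gene passed the filter only through its grna-/- mean, 2.09 TPM against 0.221 TPM in grna+/+. Its separation is therefore no support for a rise. Its neighbour cyp8b2, under the filter, was at 0.261, 0.412 and 0.308 TPM and at 2.97, 0.436 and 1.01 TPM, again highest in grna-/- replicate 1. Hepatocyte markers, 17 in the table from a list of 20, summed to 153, 291 and 138 TPM in grna+/+ fish against 252, 127 and 106 TPM in grna-/- fish. Their sum was thus high in grna-/- replicate 1, but highest in grna+/+ replicate 2, and serpina1 was at 0 in every library. Of the 7 hepatocyte markers tested, 6 had a log2 fold change below 0 and 1 above, with a median of -1.15, and none was called. Groups did not overlap for 5 of the 7, all lower in grna-/-, beside 10.6% of all genes tested. cyp39a1, an oxysterol hydroxylase, was at 0, 0.0508 and 0.0887 TPM and at 0.16, 0.0418 and 0.0484 TPM. cyp27a1.4, of the sterol side-chain hydroxylases, was at 1.07, 0.509 and 0.833 TPM and at 1.14, 1.41 and 0.546 TPM.

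Vitamin D and retinoid genes were all under the filter, and their genotypes overlapped. cyp27b1, which makes the active hormone in the kidney of mammals, was at 0.891, 0.591 and 0.361 TPM in grna+/+ fish against 0.497, 0.0973 and 0.901 TPM in grna-/- fish. cyp24a1, which breaks the hormone down, was at 0.0485, 0.383 and 0.286 TPM and at 0.345, 0.0450 and 0.156 TPM. Neither showed an order by genotype. cyp27c1, a retinoid desaturase, was at 0.549, 0.884 and 0.347 TPM and at 0.651, 0.582 and 0.716 TPM. cyp26c1, which degrades retinoic acid, was at 0.179, 1.90 and 0.277 TPM and at 0.182, 0.166 and 0.0549 TPM. It had 66 reads in grna+/+ replicate 2 and at most 11 in any other library.

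The 6 steroid hormone P450 genes with a row were at or near 0 in all 6 libraries. cyp11a1, which starts steroid synthesis by cutting the cholesterol side chain, was at 0.141, 0.212 and 0 TPM in grna+/+ fish against 0.0557, 1.0 and 0.202 TPM in grna-/- fish. The highest value, in grna-/- replicate 2, came from 23 reads. cyp11c1, of the last step to cortisol, was at 0, 0 and 0.0512 TPM and at 0, 0.0483 and 0.0559 TPM. cyp17a1, of cortisol and sex steroid synthesis, was at 0.0367, 0 and 0 TPM and at 0, 0.0341 and 0.118 TPM, and cyp17a2 was at 0 throughout. The aromatases were as low: cyp19a1a was at 0.0622 TPM in grna+/+ replicate 2 and at 0 elsewhere. cyp19a1b was at 0.0493, 0.111 and 0.0242 TPM and at 0.0292, 0 and 0.0265 TPM. A difference between genotypes was not detectable at this depth, where libraries hold up to 14075134 reads and a count of 0 allows up to 3. No row carried a cyp11a2 or a cyp21 symbol, so these genes were not analysed here.

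**Figure D4:**
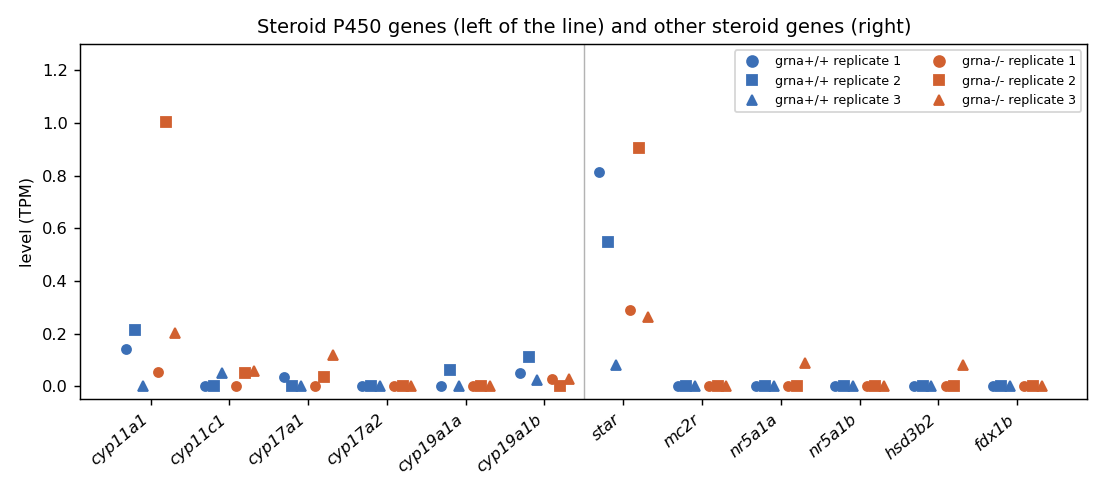
Level in TPM of the steroid hormone P450 genes and of further genes of interrenal steroid synthesis in each library. Blue marks are grna+/+ and orange marks grna-/-; the highest steroid P450 value is 1.0 TPM, for cyp11a1 in grna-/- replicate 2.

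Genes that define the interrenal gland were scarce too. Of 23 listed genes of steroid synthesis and turnover, 17 had a row and 9 were tested. star, which carries cholesterol into mitochondria, was at 0.0800 to 0.904 TPM in the 6 libraries, and the corticotropin receptor mc2r, the adrenodoxin fdx1b and nr5a1b were at 0. Chromaffin cell markers, which share that gland in fish, summed to 1.06 to 1.84 TPM in grna+/+ fish against 0.90 to 1.94 TPM in grna-/- fish, and 11 markers of germ cells and gonad to 10.5 to 13.1 TPM and 9.51 to 25.0 TPM.

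Some enzymes that turn steroids over were well expressed. Those named here are the listed genes of smallest p. srd5a2a, a steroid reductase, fell from a mean of 103 ± 2.0 TPM to one of 63.7 ± 2.07 TPM (limma adjusted p = 0.0469, log2 fold change -0.69, SE 0.12). Its limma adjusted p was 0.056 with the replicate block, 0.0544 with no filter and 0.0825 without the trend. The call was also lost with a filter of 5 TPM, quantile scaling, globins left out, voom, or any single library left out. hsd11b2, which inactivates cortisol, averaged 81.3 ± 17.7 and 175 ± 61.8 TPM (log2 fold change 1.07, limma adjusted p = 0.111) and rose with the block (limma adjusted p = 0.0304). sult2st3, a sulfotransferase, averaged 17.5 ± 5.41 and 8.75 ± 7.23 TPM (limma adjusted p = 0.263). Of the 9 genes tested on the list 1 was called lower and none higher, beside 0.493% and 0.66% of all genes tested. The list's median log2 fold change was 0.09.

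Electron donors gave no call in the main limma fit or by voom. With library weights 1 was called higher and 1 lower, where 1656 of the 10750 genes were called higher and 791 lower. Of 14 listed genes 10 had a row and 9 were tested. Beside 17.6% of all genes tested, 1 of the 9 had an unadjusted p below 0.05 with limma. That was cyb5a, cytochrome b5 itself, at 110 ± 12.04 TPM in grna+/+ fish against 73.2 ± 2.01 TPM in grna-/- fish with no overlap (log2 fold change -0.58, limma adjusted p = 0.095). The next were fdx1l, an adrenodoxin relative, at 11.97 ± 4.35 and 18.0 ± 0.935 TPM, and cyb5r1, a cytochrome b5 reductase, at 38.3 ± 3.97 and 45.2 ± 4.33 TPM (limma adjusted p = 0.286 and 0.442). The P450 oxidoreductases pora and porb, which the list did not hold under these symbols, were picked after their values were seen. pora was at 43.2, 79.5 and 50.3 TPM in grna+/+ fish against 34.9, 35.2 and 38.1 TPM in grna-/- fish, without overlap. porb was at 72.7, 172 and 85.5 TPM and at 55.2, 72.9 and 44.9 TPM, where only grna-/- replicate 2 reached the grna+/+ range. Both had an unadjusted p below 0.05 with limma (log2 fold change -0.61 and -0.84), but neither passed (limma adjusted p = 0.231 and 0.243).

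Nuclear receptors that switch P450 genes on held 1 call in the main fit. Of 22 listed genes 19 had a row and 16 were tested. The 1 of 16 called lower stands beside 0.493% of all genes tested. rxrga, a retinoid X receptor, the shared partner of many of these receptors, fell from a mean of 38.7 ± 8.33 TPM to one of 13.8 ± 1.34 TPM (limma adjusted p = 0.0236, log2 fold change -1.41, SE 0.19). Its call was lost without grna+/+ replicate 3 or without any 1 of the grna-/- fish, with limma adjusted p from 0.0779 to 0.0964. nr1h5, a bile acid receptor relative, averaged 6.44 ± 3.0 and 1.58 ± 0.833 TPM (limma adjusted p = 0.086) and fell with the replicate block (0.0197, limma adjusted p). pparaa, of the fatty acid receptors that act on CYP4 genes in mammals, averaged 3.01 ± 0.744 and 7.49 ± 3.24 TPM (limma adjusted p = 0.161). The list's median log2 fold change was 0.08.

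Enzymes listed for epoxide and prostanoid substrates shared with the cyp genes gave no call in the main limma fit or by voom. With library weights 1 was called lower, in a fit that called 791 of the 10750 genes lower. Of 14 listed genes 10 had a row and 9 were tested. Beside 17.6% of all genes tested, 1 of the 9 had an unadjusted p below 0.05 with limma. This was ptgis, prostacyclin synthase, at 7.92 ± 1.67 TPM in grna+/+ fish against 3.82 ± 0.492 TPM in grna-/- fish (limma adjusted p = 0.0975). ptgs1, a cyclooxygenase, averaged 45.2 ± 28.2 and 27.4 ± 8.76 TPM, and tbxas1, thromboxane synthase, 15.1 ± 2.79 and 12.4 ± 3.62 TPM (limma adjusted p = 0.461 and 0.568). Both ptgis and tbxas1 code for P450 enzymes too. Their symbols lack cyp, so they are not among the P450 genes counted here. The median log2 fold change of the list was -0.14.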

How the data were processed

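RNA from kidney marrow suspensions of 3 grna+/+ and 3 grna-/- fish was sequenced as single 75 bp reads from a stranded mRNA kit, per the labels' protocols. The authors deposited gene levels in TPM. The submitters' processing notes name featureCounts, Subread, DESeq2 1.26.0 and the build GRCz10 (danRer10), and no source used here gives how TPM was computed. For the 11875 genes above 0 in all libraries the TPM ratios gave whole reads within a relative tolerance of 1e-09. These recovered reads, the smallest whole numbers that fit, served for read numbers and for a voom alternative chosen after seeing the data.

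Genotypes were compared with limma 3.58.1 (R 4.3.3; trend, two-sided) on log2(TPM + 1) for the 10750 genes with a mean of at least 1 TPM. The pseudocount of 1 TPM understates changes of low genes. P-values were Benjamini-Hochberg adjusted over all of them, with 0.05 as the threshold. The fit was tested on simulated data. Deviations of same-numbered fish correlated at 0.136, 0.153 and 0.237, each above 0.1, so a fit with the replicate number as a block was also made. The labels give no origin for the numbers.

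Values in every library were given for called P450 genes, the 12 highest, the steroid families, up to 3 of smallest p in families 1 to 4, separated genes with a log2 fold change of at least 1, and the families 20, 24, 26, 27, 39 and 46; family 7, also in that rule, had no row among the 65 genes. Pathway lists gave their called genes and up to 3 of smallest p. The P450 genes, lists and rules were chosen with earlier results of these data known. Library totals limit precision for genes of few reads. P450 sequences were not used here. The result of 1 marker list is not reported here.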

Additional observations from a re-analysis of the deposited data

How the results depend on the processing

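Over 17 alternative settings, 16 of the 22 named and tested P450 genes kept their direction. The filters, the trend and the block do not alter a log2 fold change, so only the other settings could turn a direction. cyp1c2 was called in 13 settings and kept its direction in all 17. All genes called higher and lower, against 71 and 53, numbered 23 and 21 with no filter, 45 and 29 with a filter of 5 TPM, 46 and 30 without the trend, 43 and 29 with voom, 149 and 122 with the replicate block, and 1656 and 791 with library weights, which ran from 0.327 to 4.81. With 1 library left out they ranged from 10 to 112 and from 5 to 92. P450 genes called lower numbered 0 with no filter and 4 with weights, and 0 to 1 with 1 library left out; those called higher numbered 1 with the replicate block, 5 with weights and 0 in every leave-out. The block changed no other P450 call than that of cyp2k22. Direction turned only for uncalled genes. In log2 fold change, median-of-ratios scaling gave -0.0041 for cyp2k8 and -0.053 for cyp2n13. Quantile scaling gave -0.017 for cyp2n13 and -0.046 for cyp46a1.4. Leaving out globins gave 0.0067 for cyp3c3 and 0.032 for cyp46a1.2. Weights gave -0.025 for cyp2k8, -0.019 for cyp46a1.4 and 0.19 for cyp4t8. With 1 library left out cyp2k8 ranged from -0.071 to 0.20, cyp2n13 from -0.28 to 0.25, cyp3c3 from -0.58 to 0.38, cyp46a1.2 from -0.17 to 0.071, cyp46a1.4 from -0.012 to 0.22 and cyp4t8 from -0.47 to 0.087. For all of these the cause was not tested. Nothing in the labels says that numbers mark litters or days, and 3 fish a genotype limit every test.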
